A study of Mus musculus with 12 samples.

Results

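The transcripts of 40 genes of the lysosome and of autophagy were followed in MC38 cells exposed to a MEK inhibitor. The genes were picked by function: 16 encode enzymes of the lysosomal lumen or their activator, 8 encode proteins of the lysosomal membrane, its sterol and calcium transport or its proton pump, 13 encode parts of the autophagy machinery, and 3 encode MiT/TFE transcription factors. All 40 were measured, out of 18193 genes that the arrays represented by 1 probe set each, namely the probe set with the highest mean over all arrays among those assigned to a single gene. MC38 is a colon carcinoma line of C57BL/6 mice, and no genetic modification is given for the cells used here. GDC-0623 is a small molecule that inhibits MEK, the kinase directly upstream of ERK. Cells received GDC-0623 at 100 nM or the same amount of its solvent DMSO, and RNA was taken after 24 h or 72 h. This gave 4 groups of 3 numbered replicates with 1 array each. The 24h DMSO and 72h DMSO groups were controls, and the 24h GDC-0623 and 72h GDC-0623 groups were treated cultures. All values describe 1 established line in culture, and in such bulk RNA fewer cells of a type and less RNA per cell cannot be told apart.

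Lysosomes are acidic compartments in which hydrolases degrade proteins, glycans and lipids that arrive by endocytosis or by autophagy, and a vacuolar proton pump keeps their lumen acidic. In autophagy a double membrane encloses cytoplasm and then fuses with the lysosome; the ULK1 and Beclin 1 complexes start the process, and small proteins of the LC3 and GABARAP families are attached to the growing membrane and bind cargo receptors such as p62. TFEB, TFE3 and MITF bind a short E-box-type element, known as CLEAR, near the start of many lysosomal genes. Kinases that include mTORC1 and ERK are known to phosphorylate TFEB and hold it in the cytoplasm. The comparisons below therefore asked how transcripts of the compartment stood after MEK inhibition, and whether 24 h and 72 h differed.

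Of the 40 genes, 33 had a promoter sequence in the RefSeq table used here (mouse build GRCm38.p6), each running from 250 bases before the start site to 50 bases after it. The palindrome TCACGTGA, the centre of the CLEAR element, was present in 6 of these 33 genes (18.2%), against 304 of 27025 genes with a promoter in the table (1.12%). The shorter TCACGTG, which every TCACGTGA contains, was present on either strand in 11 of 33 (33.3%) against 4.29% of all genes, and the plain E-box CACGTG, which both contain, in 13 of 33 (39.4%) against 8.09%. TCATGTG, the M-box bound by MITF, was found on either strand in 3 of 33 (9.09%) against 4.31%. The genes were picked by function, and many lysosomal genes are known to hold the element, so these shares do not describe the response to GDC-0623. Shares of called and uncalled genes were not compared. The promoters of the 5 genes that held TCACGTGA and were higher with GDC-0623 at 24 h are printed here, because they show where the element lies in genes whose values follow; capitals mark TCACGTGA, and all read from 5′ to 3′ on the gene's strand. They lie at chr8:105566015-105566314, minus strand, for Atp6v0d1, at chr16:44139210-44139509, minus strand, for Atp6v1a, at chr8:3500269-3500568, plus strand, for Mcoln1, at chr2:164833523-164833822, plus strand, for Ctsa, and at chr7:142387778-142388077, minus strand, for Ctsd.
Atp6v0d1: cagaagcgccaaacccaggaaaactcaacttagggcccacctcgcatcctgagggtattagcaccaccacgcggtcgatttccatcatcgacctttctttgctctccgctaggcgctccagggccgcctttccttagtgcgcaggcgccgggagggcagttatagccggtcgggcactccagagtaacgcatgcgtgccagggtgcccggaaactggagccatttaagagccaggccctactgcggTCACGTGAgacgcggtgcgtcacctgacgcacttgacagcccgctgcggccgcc
Atp6v1a: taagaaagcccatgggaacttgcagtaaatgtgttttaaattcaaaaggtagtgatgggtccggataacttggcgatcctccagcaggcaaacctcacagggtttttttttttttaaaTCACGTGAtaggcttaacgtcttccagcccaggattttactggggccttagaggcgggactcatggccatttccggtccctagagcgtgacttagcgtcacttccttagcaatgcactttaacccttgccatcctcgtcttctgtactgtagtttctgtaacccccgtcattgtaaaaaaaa
Mcoln1: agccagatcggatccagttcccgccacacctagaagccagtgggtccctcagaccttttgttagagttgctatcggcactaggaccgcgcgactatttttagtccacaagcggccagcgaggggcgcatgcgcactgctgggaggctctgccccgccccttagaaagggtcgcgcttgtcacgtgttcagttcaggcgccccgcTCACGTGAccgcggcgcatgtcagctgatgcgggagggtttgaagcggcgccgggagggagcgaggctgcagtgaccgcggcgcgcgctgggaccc
Ctsa: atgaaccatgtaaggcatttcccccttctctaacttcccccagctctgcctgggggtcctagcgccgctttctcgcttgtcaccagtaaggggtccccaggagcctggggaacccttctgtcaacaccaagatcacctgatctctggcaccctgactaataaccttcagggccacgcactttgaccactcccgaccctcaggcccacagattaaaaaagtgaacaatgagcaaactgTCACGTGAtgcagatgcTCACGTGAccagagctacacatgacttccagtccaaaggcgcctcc
Ctsd: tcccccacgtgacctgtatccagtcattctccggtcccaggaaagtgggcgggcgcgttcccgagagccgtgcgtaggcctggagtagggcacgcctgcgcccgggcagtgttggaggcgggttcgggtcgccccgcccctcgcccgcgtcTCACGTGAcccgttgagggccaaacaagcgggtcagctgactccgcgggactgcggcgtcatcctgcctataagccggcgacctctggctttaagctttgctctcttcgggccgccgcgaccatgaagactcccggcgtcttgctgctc
The first base of the match lay 4 bases before the start site in Atp6v0d1, 132 in Atp6v1a, 46 in Mcoln1 and 99 in Ctsd, and Ctsa held 2 matches, at 13 bases before the start site and 4 after it. The sixth gene with the palindrome, Gla, held 2 matches further upstream, 228 and 195 bases before the start site. Of the other genes with TCACGTG, Glb1, Lamp1 and Atg7 were called higher at 24 h, and Gla, Gaa and Naglu were not called. Ctsl and Atg5, which held only CACGTG, were not called at 24 h either. No TCACGTG match was found for Map1lc3a, Neu1, Gabarap or Lipa, which rose by 1.03, 1.02, 0.78 and 0.65 at 24 h. Genes without a promoter sequence could not be searched. Such matches describe the letters of the window and were not measured as bound sites.

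The drug label was checked on 4 genes that ERK signalling is known to induce. Of these, Spry4 was dim here, with DMSO group means of 5.02 at 24 h and 5.14 at 72 h. Egr1, an immediate early transcription factor, fell by 4.90 on the log2 scale at 24 h and by 5.57 at 72 h, and Dusp6, Etv5 and Spry4 were also lower at both times (limma, Benjamini-Hochberg adjusted p between 1.32e-07 and 0.0145). The Spry4 call at 24 h (-0.44) was lost without replicate 1 of 24h DMSO and with arrays shifted by their hybridization controls (-0.28, adjusted p = 0.173), and its call at 72 h without replicate 2 or 3 of 72h DMSO. Array medians lay between 4.63 and 4.7, since the authors' RMA step gives all arrays nearly 1 distribution of values. The 7 epithelial markers, among them Cdh1, Krt18 and Epcam, had group means of 2.61 to 5.62 on the log2 scale. Of these Krt8 was lower at 72 h (-0.40, adjusted p = 0.0133, lost without replicate 3 of 72h DMSO), and no other was called with GDC-0623. Group means of Vim, an intermediate filament of mesenchymal cells, lay between 13.57 and 13.77, and levels of different probe sets were not set against each other. Of 11 macrophage, 6 other leukocyte and 5 endothelial markers, the highest group mean was 7.50, for Cd14. Ptprc, Cd3g, Itgam and Pecam1 had a mean of 3.26 or less in every group. Others had higher group means: Cd68 5.34 to 6.26, Csf1r 5.56 to 5.61, Cd3e 5.11 to 5.28 and Kdr 4.64 to 4.87. Summed over an array, the macrophage list gave 48.26 to 49.25 with DMSO and 47.73 to 49.09 with GDC-0623 at 24 h, and 49.82 to 50.28 and 48.90 to 49.14 at 72 h. Within that list Cd14 was lower at both times (-0.35 and -0.57) and Lyz2 was higher at 72 h (0.51, adjusted p = 0.013). The Cd14 call at 24 h held in 3 of 6 omissions and was lost with arrays shifted by their hybridization controls (-0.18, adjusted p = 0.429). The Lyz2 call was lost without replicate 2 of 72h DMSO. Cd68 was not called with GDC-0623 (0.03 and -0.55, adjusted p = 0.0726 at 72 h). With time in DMSO, Cd68 (0.92) and Cd14 (0.55) were called higher. The 6 mesenchymal markers summed to 43.39 to 44.99 with DMSO and 49.93 to 50.53 with GDC-0623 at 24 h, and to 44.93 to 45.44 and 51.79 to 53.58 at 72 h. Acta2 (2.45 and 3.58), Pdgfrb (2.15 and 1.29) and Col1a2 (1.45 and 1.49) rose at both times and Col1a1 at 72 h (0.91), whereas Vim (-0.04 and 0.13) and Thy1 (-0.12 and -0.04) were not called; the part of this shift in the lysosomal values was not tested.

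After 24 h of GDC-0623, 22 of the 40 genes were higher than with DMSO, 0 were lower and 18 did not pass the threshold of 0.05 on the adjusted p. Among all 45037 probe sets tested, 9.29% were higher and 7.43% lower, and among the 9132 genes with a mean of at least 6 on the log2 scale, a level that 39 of the 40 reached, 22.5% were higher and 13.8% lower. The median log2 fold change of the 40 genes was 0.27, against 0.02 for those 9132 genes. The GDC-0623 and DMSO arrays did not overlap for 27 of the 40, and for 62.9% of the 9132 genes. At an unadjusted p under 0.05, 24 were higher and Ctsl alone was lower in limma, where 30.5% of the 9132 genes were higher and 22.3% lower, and limma with a filter on dim probe sets also called Ctsl lower. The calls of 12 genes held whichever of the 6 arrays was left out, and the number called higher ranged from 13, without replicate 2 of 24h DMSO, to 20.

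After 72 h, 25 of the 40 genes were higher, 2 were lower and 13 did not pass. All probe sets were higher in 10.1% and lower in 10.2%, and the genes with a mean of at least 6 in 21.9% and 21.6%. The median of the 40 genes was 0.40 (log2), against -0.02 for those genes, and the groups did not overlap for 31, and for 68.6% of those genes. The calls of 14 genes held in all 6 omissions; 15 genes were called higher without replicate 1 or without replicate 2 of 72h DMSO, and 1 was called lower without replicate 1 or 3 of 72h DMSO or replicate 2 of 72h GDC-0623. In total 21 genes were higher at both times, 4 were higher at 72 h and not called at 24 h (Ctsz, Gaa, Atg12 and Tfeb), and Uvrag was higher at 24 h and missed the threshold at 72 h. The 24 h and 72 h comparisons share no arrays, and 34 of the 40 genes had the same sign in both. Same-numbered 24 h and 72 h arrays of a treatment deviated together (correlations from 0.225 to 0.555), so the comparisons are not fully independent. The shares of all genes with the same sign, or higher at both times, were not computed.

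**Figure D1:**
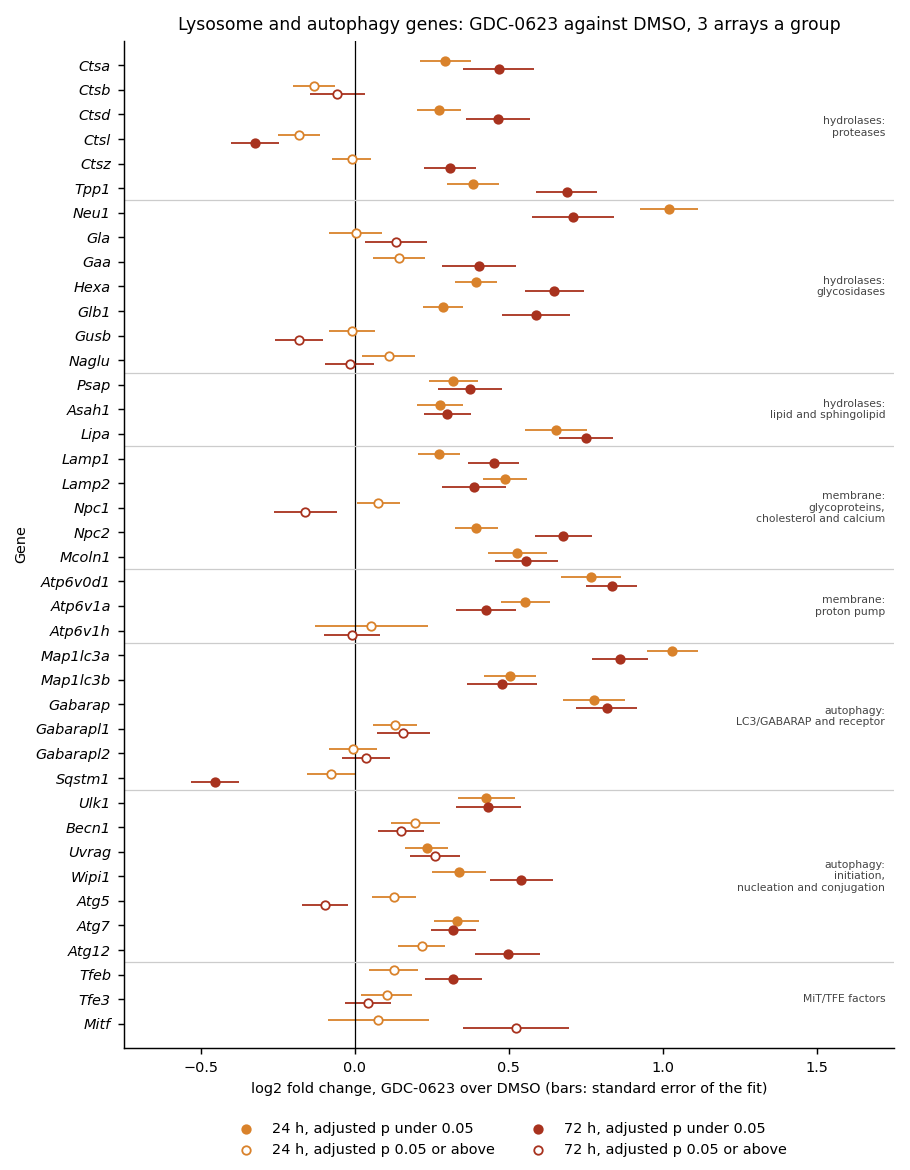
Log2 fold change of GDC-0623 over DMSO (horizontal axis) for each of the 40 genes (vertical axis, by role) at 24 h (orange) and 72 h (red), with the standard error of the fit as bars and filled points for adjusted p under 0.05. Neu1 and Map1lc3a stand at 1.02 and 1.03 at 24 h, and Ctsl and Sqstm1 are the filled points left of 0, at -0.32 and -0.45 at 72 h.

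**Figure D2:**
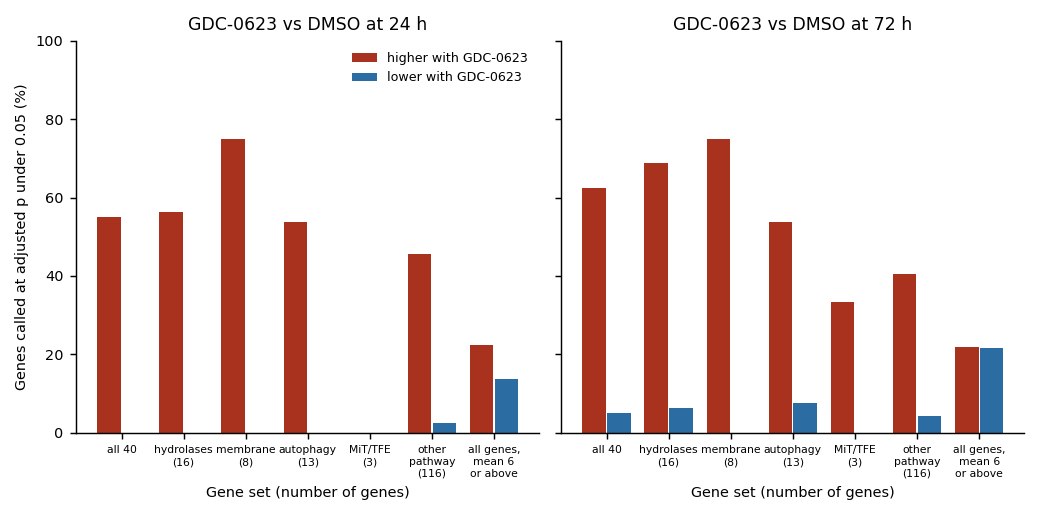
Percent of genes called higher (red) or lower (blue) with GDC-0623 at 24 h (left) and 72 h (right) for the 40 genes, their 4 role groups, 116 other genes of the pathway, and all 9132 genes with a mean of at least 6. At 24 h the bar for the 40 genes is 55.0% higher, beside 22.5% for all genes of that level; at 72 h it is 62.5% beside 21.9%.

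Among the 16 hydrolases and activators, 9 rose at 24 h, and 11 rose and 1 fell at 72 h, with median log2 fold changes of 0.28 and 0.39. Neu1, the lysosomal sialidase that removes sialic acids from glycoproteins, had the largest rise of the hydrolases at 24 h. It read 6.30, 6.11 and 6.29 on the 24h DMSO arrays and 7.43, 7.15 and 7.18 on the 24h GDC-0623 arrays, and at 72 h 7.08, 7.03 and 7.16 against 8.13, 7.64 and 7.62. Every drug array lay above the DMSO arrays of its time, and the highest of the 72h DMSO arrays lay within the range of the 24h drug arrays. The log2 fold changes were 1.02 ± 0.094 (SE, adjusted p = 0.000129) and 0.71 ± 0.133 (adjusted p = 0.00555), where n is 3 arrays a group here and throughout. The other 2 Neu1 probe sets lay at means of 4.19 and 3.31 and were not called at either time.

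Lipa, the acid lipase that splits cholesteryl esters and triglycerides, read 8.17, 7.98 and 8.18 with DMSO and 8.88, 8.56 and 8.85 with GDC-0623 at 24 h. At 72 h it read 8.43, 8.36 and 8.50 against 9.32, 9.09 and 9.13. The groups were separate at both times, with log2 fold changes of 0.65 ± 0.101 (adjusted p = 0.0021) and 0.75 ± 0.088 (adjusted p = 0.000518), and the other 2 probe sets were also called higher at 24 h, by 0.68 and 0.59. Psap, the precursor of the saposins that present sphingolipids to their hydrolases, rose by 0.32 and 0.37, and Asah1, acid ceramidase, by 0.28 and 0.30, so all 3 genes of lipid breakdown were called at both times. A second Psap probe set (mean 11.65) differed by 0.31 and 0.34 and passed at neither time (adjusted p = 0.121 and 0.0584). The Psap and Asah1 calls at 24 h held in 2 and 1 of 6 omissions, and at 72 h in 1 and 3.

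Hexa, the alpha subunit of the hexosaminidase that degrades ganglioside, read 11.02, 10.93 and 10.98 with DMSO and 11.43, 11.31 and 11.37 with GDC-0623 at 24 h, and 11.09, 11.04 and 11.18 against 11.91, 11.60 and 11.74 at 72 h. Glb1, the acid beta-galactosidase, read 8.05, 8.01 and 8.04 against 8.30, 8.30 and 8.36 at 24 h, and 8.48, 8.32 and 8.50 against 9.25, 8.89 and 8.92 at 72 h. Tpp1, a tripeptidyl peptidase, read 10.43, 10.33 and 10.50 against 10.94, 10.72 and 10.75 at 24 h, and 10.60, 10.45 and 10.58 against 11.38, 11.05 and 11.26 at 72 h. In these 3 genes the drug and DMSO arrays were separate at both times and the estimate was larger at 72 h. Hexa rose by 0.39 and 0.65 (adjusted p = 0.00405 and 0.00168), Glb1 by 0.29 and 0.59 (adjusted p = 0.0142 and 0.00547) and Tpp1 by 0.38 and 0.69 (adjusted p = 0.0124 and 0.00154). The 24 h calls of Glb1 and Tpp1 were lost without replicate 2 of 24h DMSO, which gave the lowest of the 3 DMSO values in both.

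The cathepsins did not move as 1 group. Ctsa, which is both a carboxypeptidase and the protective partner of NEU1 and GLB1, rose by 0.29 and 0.47 (log2, adjusted p = 0.0402 and 0.0194), and Ctsd, the main aspartic protease of lysosomes, by 0.27 and 0.46 (adjusted p = 0.0278 and 0.0129). Ctsz, a cysteine carboxypeptidase, differed by -0.01 at 24 h and rose by 0.31 at 72 h (adjusted p = 0.0298). Ctsb and Ctsl encode cysteine proteases of the same papain family, and neither rose: Ctsb differed by -0.13 and -0.06, neither past the threshold, and Ctsl differed by -0.18 at 24 h (adjusted p = 0.111) and fell by 0.32 at 72 h (adjusted p = 0.0169). For both, another probe set was called lower at 24 h, by -0.25 for Ctsb and -0.44 for Ctsl. With arrays shifted by their hybridization controls the 24 h differences were 0.03 for Ctsb, -0.01 for Ctsl and 0.16 for Ctsz, so the sign of Ctsb and Ctsz turned. The Ctsa and Ctsd calls at 24 h held in 2 and 1 of 6 omissions and at 72 h in 4 and 5. A dimmer second Ctsa probe set (mean 5.41) differed by -0.08 and 0.12 and was not called. The Ctsz call at 72 h held in 1 omission and was lost under the same shift (adjusted p = 0.0551). The Ctsl call at 72 h was lost without replicate 1 or 3 of 72h DMSO or replicate 2 of 72h GDC-0623, and under that shift (adjusted p = 0.0524).

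The remaining glycosidases gave smaller differences. Gaa, the acid alpha-glucosidase that degrades glycogen, differed by 0.14 at 24 h, where its second probe set was called at 0.39, and rose by 0.40 at 72 h (adjusted p = 0.0444, held in 1 of 6 omissions). Gla, alpha-galactosidase A, differed by 0.00 and 0.13 on the chosen probe set and was not called, whereas a dimmer probe set was higher by 0.53 and 0.78. Gusb, beta-glucuronidase, differed by -0.01 and -0.18 and Naglu, which acts on heparan sulfate, by 0.11 and -0.02, and none of these passed.

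Of the 8 membrane genes, 6 rose at both times, with medians of 0.44 and 0.44, and 2 passed at neither. Atp6v0d1, a subunit of the membrane sector of the proton pump, read 10.40, 10.23 and 10.45 with DMSO and 11.28, 10.96 and 11.14 with GDC-0623 at 24 h. At 72 h it read 10.32, 10.30 and 10.37 against 11.28, 11.07 and 11.14, so that the drug arrays lay over 0.5 log2 units above every DMSO array at both times. The log2 fold changes were 0.77 ± 0.097 (adjusted p = 0.000741) and 0.83 ± 0.082 (adjusted p = 0.000206). Atp6v1a, the catalytic subunit that hydrolyses ATP, read 10.16, 10.05 and 10.11 against 10.78, 10.65 and 10.55 at 24 h and 10.10, 10.20 and 10.29 against 10.79, 10.58 and 10.50 at 72 h. It rose by 0.55 (adjusted p = 0.00138) and 0.43 (adjusted p = 0.0138, lost without replicate 1 of 72h DMSO). Atp6v1h, a regulatory subunit of the same pump, differed by 0.05 and -0.01, and its arrays at 24 h spread from 9.81 to 10.42, with replicate 2 lowest in both groups.

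Mcoln1, the calcium channel of the lysosomal membrane, read 8.50, 8.20 and 8.38 with DMSO and 8.95, 8.75 and 8.96 with GDC-0623 at 24 h, and 8.62, 8.50 and 8.70 against 9.33, 9.0 and 9.16 at 72 h. Npc2, the soluble protein that hands cholesterol to the membrane, read 11.53, 11.57 and 11.59 against 12.01, 11.99 and 11.87 at 24 h, and 11.87, 11.98 and 11.97 against 12.78, 12.52 and 12.55 at 72 h. Both were separate from DMSO at each time. Mcoln1 rose by 0.53 and 0.56 (adjusted p = 0.00497 and 0.00478) and Npc2 by 0.39 and 0.68 (adjusted p = 0.00438 and 0.00108), and these calls held in all omissions. Npc1, the membrane transporter that receives cholesterol from NPC2, differed by 0.08 and -0.16 and passed at neither time. Lamp1 and Lamp2, the abundant glycoproteins that line the membrane, rose by 0.27 and 0.49 at 24 h and by 0.45 and 0.39 at 72 h. All 4 Lamp2 probe sets were called higher at 24 h. The Lamp1 call at 24 h and the Lamp2 call at 72 h held in 2 of 6 omissions each.

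**Figure D3:**
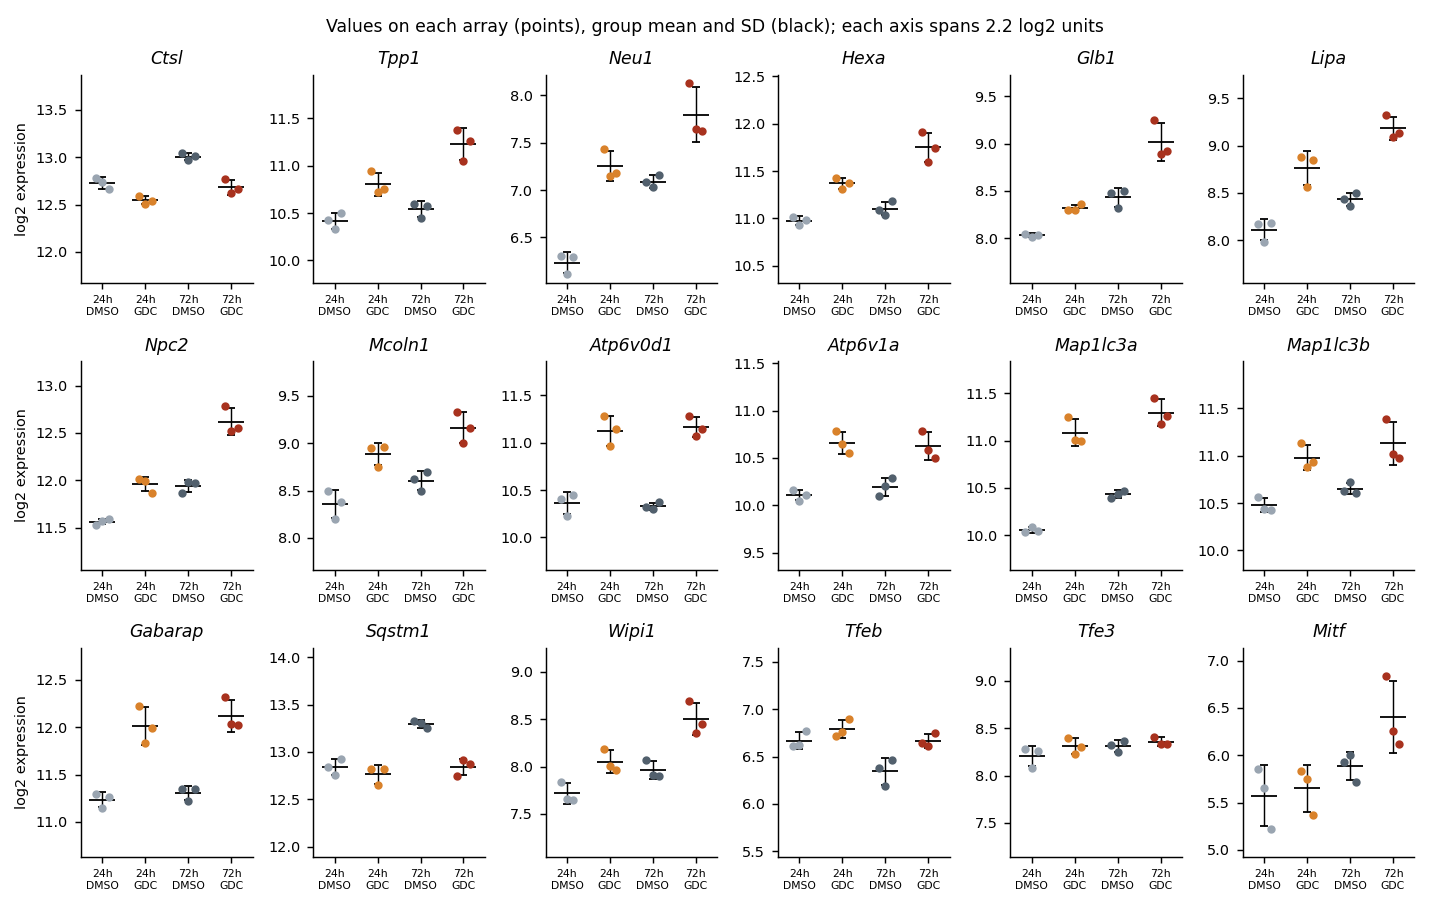
Log2 expression on each of the 12 arrays for 18 of the 40 genes, with points for arrays and a black line and bar for the group mean and SD (n = 3); every vertical axis spans 2.2 log2 units. Atp6v0d1 and Gabarap show DMSO arrays at like levels at 24 h and 72 h and all drug arrays above them, while Neu1 is higher at 72 h in both treatments and Sqstm1 is highest in 72h DMSO.

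Of the 13 autophagy genes, 7 rose at 24 h, and 7 rose and 1 fell at 72 h (medians 0.23 and 0.32). The LC3 and GABARAP genes divided by member. Map1lc3a, which encodes LC3A, read 10.03, 10.09 and 10.04 with DMSO and 11.25, 11.01 and 10.99 with GDC-0623 at 24 h, and 10.39, 10.44 and 10.47 against 11.45, 11.17 and 11.26 at 72 h. Its rise of 1.03 ± 0.084 at 24 h (adjusted p = 6.44e-05) was the largest of the 40 genes, and at 72 h it was 0.86 ± 0.09 (adjusted p = 0.000285).

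Gabarap read 11.30, 11.15 and 11.26 with DMSO and 12.22, 11.83 and 11.99 with GDC-0623 at 24 h, and 11.35, 11.22 and 11.35 against 12.32, 12.03 and 12.02 at 72 h, rises of 0.78 ± 0.101 (adjusted p = 0.000857) and 0.82 ± 0.1 (adjusted p = 0.000636). Map1lc3b, the gene of the LC3B protein commonly used to mark autophagosomes, read 10.56, 10.44 and 10.43 against 11.13, 10.88 and 10.93 at 24 h, and 10.63, 10.72 and 10.61 against 11.39, 11.02 and 10.98 at 72 h. It rose by 0.50 (adjusted p = 0.00331) and 0.48 (adjusted p = 0.0168), the latter lost without replicate 1 or 3 of 72h DMSO. The drug arrays of these 3 genes lay above all DMSO arrays of their time. The related Gabarapl1 and Gabarapl2 differed by 0.13 and -0.01 at 24 h and by 0.16 and 0.04 at 72 h and were not called.

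Sqstm1, which encodes the cargo receptor p62, was the other gene lower at 72 h. It read 12.84, 12.76 and 12.92 with DMSO and 12.82, 12.65 and 12.82 with GDC-0623 at 24 h, where the groups overlapped. At 72 h it read 13.33, 13.31 and 13.25 against 12.75, 12.91 and 12.87, so the DMSO arrays had moved up while the drug arrays lay close to the range of 24h DMSO. The log2 fold changes were -0.08 ± 0.079 (adjusted p = 0.575) and -0.45 ± 0.078 (adjusted p = 0.00364). With arrays shifted by their hybridization controls the sign at 24 h turned, to 0.09. A dimmer second probe set was called lower at 24 h, at -0.53, and was not called at 72 h (-0.51, adjusted p = 0.0848).

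Among genes that start and extend the autophagosome, Ulk1, the initiating kinase, rose by 0.43 at both times (adjusted p = 0.0115 and 0.0178, the latter held in 2 of 6 omissions). A dimmer second Ulk1 probe set differed by 0.13 and 0.11 and was not called. Wipi1, which binds phosphatidylinositol 3-phosphate on the forming membrane, read 7.84, 7.66 and 7.65 with DMSO and 8.19, 8.01 and 7.96 with GDC-0623 at 24 h, and 8.07, 7.91 and 7.90 against 8.69, 8.36 and 8.45 at 72 h. Its groups did not overlap, and it rose by 0.34 (adjusted p = 0.0272, held in 2 of 6 omissions) and 0.54 (adjusted p = 0.00568). Atg7, the E1-like enzyme that activates LC3 and ATG12, rose by 0.33 and 0.32, although its other 3 probe sets were not called and the mean over its probe sets did not pass (0.07 and 0.10); the calls were lost without replicate 2 of 24h DMSO and replicate 2 of 72h DMSO. Atg12, a ubiquitin-like protein that ATG7 activates, differed by 0.22 (adjusted p = 0.0832) and rose by 0.50 (adjusted p = 0.00979). Another Atg12 probe set (mean 7.25) differed by 0.16 and 0.15 and was not called. Uvrag, a partner of Beclin 1, rose by 0.23 at 24 h (adjusted p = 0.048; 0.061 with the replicate number as a block, and held in 1 of 6 omissions) and differed by 0.26 at 72 h (adjusted p = 0.0515). Becn1 itself differed by 0.20 and 0.15 and Atg5, the protein conjugated to ATG12, by 0.13 and -0.10, and neither passed.

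The 3 MiT/TFE factors gave no call at 24 h in limma, nor an unadjusted p under 0.05 in any of the 3. Tfeb read 6.61, 6.62 and 6.77 with DMSO and 6.72, 6.76 and 6.90 with GDC-0623 at 24 h, and 6.38, 6.19 and 6.47 against 6.64, 6.61 and 6.75 at 72 h. At 72 h the groups were separate and the rise was 0.32 ± 0.093 (adjusted p = 0.0395), with the drug arrays at the level of 24h DMSO and the DMSO arrays below it; the call held in 1 of 6 omissions. Tfe3 read 8.28, 8.08 and 8.26 against 8.4, 8.23 and 8.30 at 24 h, and 8.32, 8.25 and 8.37 against 8.41, 8.33 and 8.33 at 72 h, differences of 0.10 and 0.04 with overlapping arrays. Mitf, the melanocyte factor and the 1 gene of the 40 with a mean under 6, read 5.85, 5.65 and 5.22 against 5.83, 5.75 and 5.37 at 24 h, and 5.93, 6.0 and 5.72 against 6.84, 6.26 and 6.12 at 72 h. Its difference at 72 h was 0.52 ± 0.172 (adjusted p = 0.0626, and 0.0263 with the replicate number as a block). The arrays measure transcripts, and the location or phosphorylation of the proteins was not measured.

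The effects at 72 h and 24 h were then compared directly on all 12 arrays. The difference passed the threshold for 0 of the 40 genes in either direction in limma, where 1.23% of all probe sets were higher and 0.975% lower, and 2.1% and 2.51% of genes with a mean of at least 6. At an unadjusted p under 0.05, 5 had a larger effect at 72 h, namely Ctsz (0.32), Tpp1 (0.30), Hexa (0.25), Glb1 (0.30) and Npc2 (0.28), and 2 a smaller one, Sqstm1 (-0.38 ± 0.107, adjusted p = 0.0976) and Atg5 (-0.22), where 8.86% of those 9132 genes had a larger effect at 72 h and 14.8% a smaller one by the same rule. With arrays shifted by their hybridization controls the 5 larger differences were 0.16, 0.15, 0.10, 0.14 and 0.13 in the same order, and the 2 smaller ones -0.53 and -0.38. With a filter on dim probe sets the difference passed for Ctsz (adjusted p = 0.0475) and Sqstm1 (0.0391). Neu1, whose estimate was smaller at 72 h, had a difference of -0.31 ± 0.175. The median difference over the 40 genes was 0.04, and its sign turned under that shift, to -0.12.

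Several of these transcripts also rose with time in culture. In DMSO, 17 of the 40 genes were higher at 72 h than at 24 h and 0 lower, where 6.55% of all probe sets were higher and 4.59% lower, and 14.6% and 8.88% of genes with a mean of at least 6; at an unadjusted p under 0.05, 20 were higher and Tfeb was lower, where 24.2% and 20.1% of those genes were. With arrays shifted by their hybridization controls 12 were called higher, and the calls of Ctsb, Ctsd, Ctsl, Lamp2 and Npc1 were lost. The hydrolases made up 11 of the 17. Naglu rose by 0.96 (from 7.34, 7.28 and 7.2 to 8.21, 8.16 and 8.33), Neu1 by 0.86, Sqstm1 by 0.46, Asah1 by 0.45, Gaa by 0.43 and Glb1 by 0.40. Naglu and Gla (0.40) thus rose with time and were not called with the drug at 24 h or 72 h. The 3 proton pump genes and the 7 genes of initiation and conjugation gave no call, and Atp6v0d1 differed by -0.03 and Gabarap by 0.07. With the replicate number as a block the calls of Lamp2 (adjusted p = 0.0782) and Npc1 (0.0534) were lost and Tfeb was lower (-0.32, adjusted p = 0.0411). The number called higher was 9 without replicate 2 or 3 of 24h DMSO or replicate 1 of 72h DMSO and 10 without replicate 3 of 72h DMSO; without the latter, 1 gene was called lower.

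In GDC-0623, 16 of the 40 genes were higher at 72 h than at 24 h and 0 lower, where 5.04% of all probe sets were higher and 2.66% lower, and 8.68% and 5.29% of genes with a mean of at least 6; at an unadjusted p under 0.05, 19 were higher, and Gusb and Atg5 were lower, where 17.1% and 22.7% of those genes were. The hydrolases made up 12 of the 16, with Naglu at 0.83, Glb1 at 0.70 and Gaa at 0.69, and Npc2 rose by 0.66. In this comparison 3 genes were called higher without replicate 2 of 24h GDC-0623, 4 without replicate 3 and 9 without replicate 1, and 6 and 8 without replicate 1 and 3 of 72h GDC-0623. With the replicate number as a block Neu1 (0.54, adjusted p = 0.0107) and Atg12 (0.38, adjusted p = 0.036) were also called. A total of 11 genes were higher with time in both treatments, and the share of all genes with that pattern was not computed. The time comparisons use the same arrays as the drug comparisons, so their values stand side by side and are not independent.

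**Figure D4:**
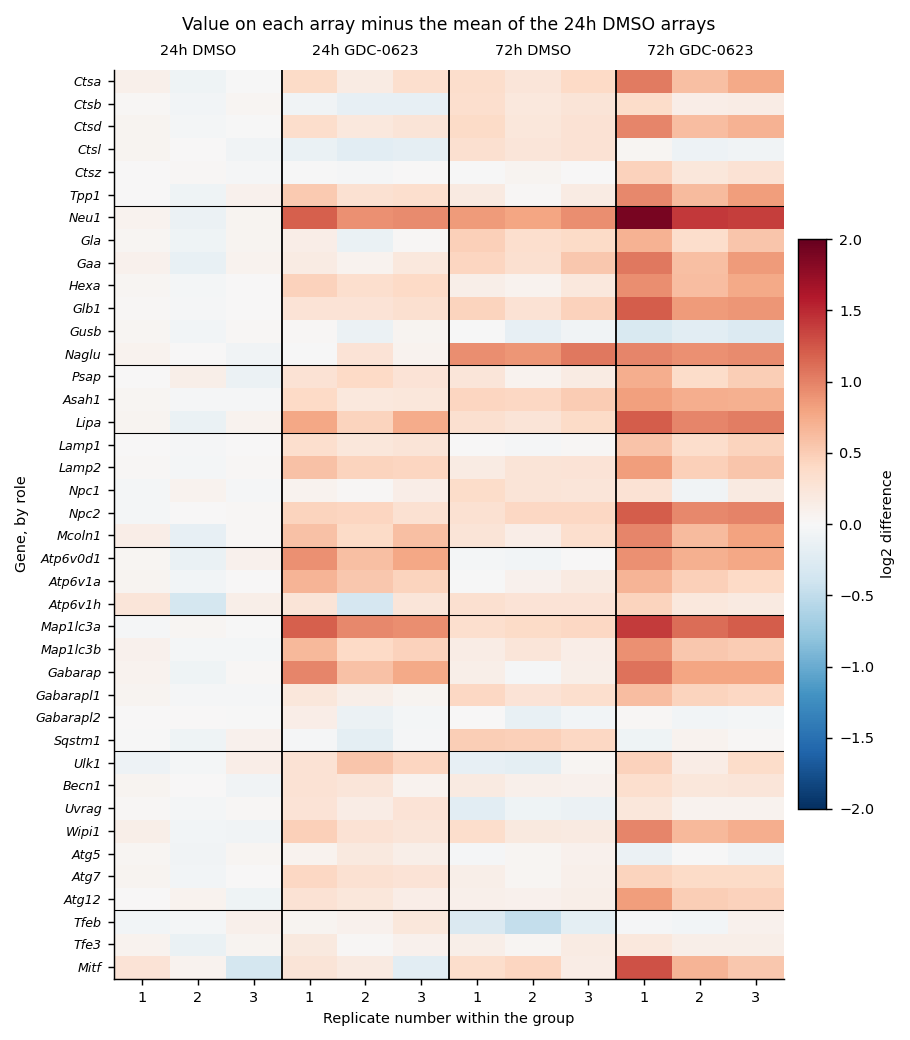
Value on each array minus the mean of the 3 24h DMSO arrays, in log2 units (colour, red higher), for the 40 genes (vertical axis, by role) on the 12 arrays (horizontal axis, replicate number within each group). Naglu turns red in 72h DMSO and 72h GDC-0623 and not in 24h GDC-0623, whereas Atp6v0d1 and Gabarap are red in both drug groups; replicate 1 of 72h GDC-0623 has the strongest red.

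Averaged over the 40 genes, the arrays read 9.63, 9.53 and 9.58 in 24h DMSO, 9.94, 9.81 and 9.85 in 24h GDC-0623, 9.81, 9.75 and 9.82 in 72h DMSO and 10.27, 10.03 and 10.08 in 72h GDC-0623. Every drug array was thus above the DMSO arrays of its time, and the 24h GDC-0623 arrays overlapped with those of 72h DMSO. Replicate 1 of 72h GDC-0623 stood highest for the set, without it 18 of the 40 genes were called higher and 2 lower at 72 h, and the median SD of the 40 genes in that group was 0.145, against 0.110 over all probe sets. The size of several of these values moved with the scaling of the arrays. When each array was shifted by its hybridization controls, the median of all probe sets moved from -0.04 to 0.13 at 24 h, and that of the 40 genes from 0.27 to 0.44, since the shift adds 1 constant to every probe set of a comparison. The median of the 40 genes with time moved from 0.22 to 0.10 in GDC-0623 and from 0.24 to 0.28 in DMSO. The split of all calls at 24 h moved from 4186 higher and 3347 lower to 5995 and 719. The splits of the time comparisons moved from 2948 and 2067 to 2876 and 835 in DMSO and from 2272 and 1197 to 1746 and 3754 in GDC-0623, and that of the difference of effects from 555 and 439 to 369 and 673.

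Further genes of the same compartment, 125 by list and 116 measured, were examined in the same fits. With GDC-0623, 53 were higher and 3 lower at 24 h and 47 higher and 5 lower at 72 h, with medians of 0.22 and 0.21; the shares given above for genes with a mean of at least 6 were 22.5% and 13.8% at 24 h and 21.9% and 21.6% at 72 h. The 3 lower at 24 h were Ctsh, Wipi2 and Sesn2, and at 72 h Galc (-0.27) and Atg4c (-0.34) joined them. Of 30 other hydrolases, 15 rose and 1 fell at 24 h and 17 rose and 2 fell at 72 h. Cathepsin O (Ctso) rose by 1.13 and 1.40, carboxypeptidase Q (Cpq) by 0.74 and 1.21 and acid sphingomyelinase (Smpd1) by 0.74 and 1.19, while cathepsin H (Ctsh) fell by 0.66 and by 0.58. Of 12 other proton pump genes, 8 rose at 24 h and 6 at 72 h and 0 fell at either time, among them Atp6v0a1 (0.45 and 0.75) and Atp6v0e (0.46 and 0.54). Of 20 other membrane and sorting genes, 7 rose at 24 h and 5 at 72 h, shares of 35.0% and 25.0%, led by the cystine exporter Ctns (0.65 and 0.88). Of 34 other autophagy genes, 15 rose and 1 fell at 24 h and 13 rose and 2 fell at 72 h: Rb1cc1, the scaffold of the ULK1 complex, rose by 0.81 and 1.05, Vamp8, a SNARE of lysosome fusion, by 0.65 and 0.73, and Bnip3, a mitophagy receptor, by 0.66 at 24 h. Bnip3 group means were 9.80 in 24h DMSO and 10.46 in 24h GDC-0623. At 72 h they were 10.99 with DMSO and 11.48 with GDC-0623, so 72h DMSO also lay above 24h GDC-0623. Wipi2, a relative of Wipi1, went the other way from it, at -0.48 and -0.74. TCACGTGA was present in the promoters of 9 of the 97 of these genes that had one (9.28%).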

How the data were processed

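Total RNA of MC38 cells was labelled by 3' in vitro transcription and hybridised to 12 one-colour Affymetrix mouse arrays. The authors deposited log2 expression values made with RMA (background correction, quantile normalisation, probe summary; named in the submitters' processing notes, version not given in the sources used here), rounded to 2 decimals. RMA removes shifts shared by most genes and gives no detection call, and the precision is limited by 3 arrays a group. Of 45101 probe sets, 64 controls were left out and 45037 were tested; 34945 had 1 gene symbol, 932 several and 9160 none, and 34741 matched the reference gene table.

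Groups were taken from the labels. Fits used limma 3.58.1 under R 4.3.3 (functions lmFit and eBayes, two-sided p). The p-values of the 45037 probe sets were adjusted together by the Benjamini-Hochberg method, and an adjusted p under 0.05 was called. The fits were tested on simulated data. Drug and time comparisons used the 6 arrays concerned, and the difference of effects all 12. Errors are standard errors of the fit. Same-numbered arrays deviated together (correlations of deviations from group means from 0.125 to 0.555 in the 4 pairwise comparisons), so the numbers, which the labels do not explain, were taken to pair cultures and a fit with the replicate number as a block was run. Other alternatives were 1 fit over 12 arrays, a filter on dim probe sets (at least 5 on at least 3 arrays, passed by all 40 genes), a trended and robust prior, a second quantile normalisation, array weights, a minimum fold of 1.5, the mean over a gene's probe sets, a shift by 9 hybridization control probe sets and the omission of each array.

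The genes, lists and tests were chosen with earlier results of these data known. Values per array are given for genes called with GDC-0623 at an absolute log2 fold change of at least 0.5, for the MiT/TFE factors, and for Sqstm1 and Naglu, which were added after their values were seen; other probe sets are given where they alone were called or bear on a call. Of the other pathway genes, up to 3 per role and drug comparison with the largest change and a mean of at least 6 were named, and Ctsh, Galc and Atg4c were named after their values were seen. Promoters came from RefSeq (GRCm38.p6); protein sequences were not analysed here. Figures were drawn with matplotlib 3.10.9.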

Additional observations from a re-analysis of the deposited data

Results flagged for a closer look

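Among the 116 other pathway genes and 35 cell type markers examined beside the 40, the drug effect at 72 h differed from that at 24 h past the threshold of the test for 3. Over all 45037 probe sets, 1.23% passed with a larger and 0.975% with a smaller effect at 72 h. The shares for genes with a mean of at least 6 were 2.1% and 2.51%. Pla2g15, the lysosomal phospholipase A2, had a difference of 0.53 (log2, adjusted p = 0.046), with 0.05 at 24 h and 0.58 at 72 h. Atg4c, a protease that trims LC3 and GABARAP proteins, had a difference of -0.53 (adjusted p = 0.0489), with 0.18 at 24 h and -0.34 at 72 h. Each of these 2 calls was kept in 2 of 12 omissions of an array. Col1a1, a collagen chain from the list of mesenchymal markers, had a difference of 0.89 (adjusted p = 0.000941), with 0.02 at 24 h and 0.91 at 72 h, and was called in all 12 omissions.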

How the results depend on the processing

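No called value of the 40 genes changed sign under any alternative run. The numbers of genes called depended on size and on single arrays. With a minimum fold of 1.5, the genes higher with GDC-0623 numbered 5 at 24 h (Neu1, Lipa, Atp6v0d1, Map1lc3a and Gabarap) and 9 at 72 h and those lower at 72 h 0, and those higher with time 2 in DMSO (Neu1 and Naglu) and 5 in GDC-0623 (Naglu, Glb1, Gaa, Npc2 and Mitf). By the same rule, 1420 of all 45037 probe sets were higher at 24 h, and 2133 were higher and 1351 lower at 72 h. With time, 900 probe sets were higher in DMSO and 1341 in GDC-0623. Leaving out 1 array gave 13 to 20 of the 40 genes higher at 24 h, 15 to 24 higher and 1 to 2 lower at 72 h, 0 to 0 in either direction for the difference of effects, 9 to 12 higher and 0 to 1 lower with time in DMSO, and 3 to 11 higher with time in GDC-0623. The genes lower at 24 h, 0 in the reported fit, numbered 1 with the dim filter or the trended and robust prior (Ctsl) and 2 with the mean over probe sets (Ctsl and Sqstm1). The difference of effects gave 1 higher and 1 lower with the dim filter and with the trended prior (Ctsz and Sqstm1) and 1 higher with the mean over probe sets (Npc2). The shift by hybridization controls left 1 lower at 72 h (without Ctsl), 7 higher with time in GDC-0623 and 12 higher with time in DMSO; the number higher at 72 h stayed 25, but Ctsz lost its call and Mitf gained one. Lower with time in DMSO was 1 gene, Tfeb, in 1 fit over 12 arrays, with the replicate number as a block, with the dim filter, with repeated quantile normalisation and with the trended prior; lower with time in GDC-0623 was 1 gene, Gusb, in 1 fit over 12 arrays and with the trended prior. The causes were not tested. The replicate block changed no call beyond those given for Uvrag, Lamp2, Npc1, Tfeb, Mitf, Neu1 and Atg12. Signs of values that were not called turned in 24, 10, 60, 9 and 16 cases over all alternatives for the 24 h, 72 h, difference, DMSO time and GDC-0623 time comparisons.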

Other observations

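Genes that regulate the MiT/TFE factors and the mTORC1 kinase complex on the lysosomal surface were listed separately, and 20 were measured. With GDC-0623, 8 rose and 1 fell at 24 h, and 6 rose and 1 fell at 72 h, with median log2 fold changes of 0.20 and 0.14; of genes with a mean of at least 6, 22.5% were higher and 13.8% lower at 24 h and 21.9% and 21.6% at 72 h. The sestrins, which restrain mTORC1, did not move together. Sesn3 read 6.37, 6.11 and 6.04 in 24h DMSO and 7.62, 7.09 and 7.10 in 24h GDC-0623, and rose by 1.10 (adjusted p = 0.000969) and by 1.08 at 72 h (adjusted p = 0.00318). Sesn1 rose by 0.78 and 0.64. Sesn2 was lower, by -0.39 at 24 h (adjusted p = 0.0238, called in 1 of 6 omissions) and -0.59 at 72 h (adjusted p = 0.0144, called in 4). Genes of the lysosomal membrane outside the 40 that transport small molecules included the sialic acid exporter Slc17a5 (0.59 at 24 h and 0.0 at 72 h) and the chloride-proton exchanger Clcn7 (0.25 at 24 h, not called, and 0.42 at 72 h, called in 2 of 6 omissions).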
